A study of Mus musculus with 3 samples.

Results

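The genes described here are 43 genes of DNA replication and nucleotide supply, chosen by symbol from a fixed list, and each was found once among 32285 features. They were read in 3 droplet single-cell RNA-seq libraries of mouse colon organoids, which are epithelial cultures grown from crypts without stroma or immune cells. 1 library was untreated, 1 was exposed to mouse IFN-γ for 24 h and 1 for 48 h, and the dose in the study's methods is 50 ng/ml. By the study's account the organoids were in medium with all growth factors, which favours stem and progenitor cells. Its results state that colon organoids in this medium came from untreated wild-type mice. Its methods list C57bl/6 mice and reporter lines as sources of organoids and assembloids, without saying which were used for these libraries. The labels name no animal or number of cultures, so nothing says that the libraries came from separate animals, and dead cells had been removed by sorting with DAPI. Because each condition had 1 library, no test between conditions was made, and all intervals are 95% intervals for counting error only.

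DNA is copied once per cell cycle because the Mcm2 to Mcm7 ring is loaded on origins in G1 by Orc, Cdc6 and Cdt1, a step that geminin (Gmnn) blocks until the next cycle. In S phase Cdc45, the GINS complex and Mcm10 turn the ring into an active helicase, and polymerases, clamp loader, clamp, single-strand binding protein and ligase work at the fork behind it. Ribonucleotide reductase (Rrm1, Rrm2) and thymidylate synthase (Tyms) supply the building blocks, and uracil-DNA glycosylase (Ung) removes uracil from the new strand. Many of these genes are known targets of E2F factors, and in the colon crypt they mark dividing progenitors and are shut down in mature colonocytes. The list was read as 11 licensing genes, 6 helicase activation genes, 22 fork genes and 4 nucleotide genes, the last of which include Ung.

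Promoters were given for 34 of the 43 genes (RefSeq, GRCm38.p6, 250 bases before to 50 bases after the annotated start). Those not among them were Mcm4, Gmnn, Gins1, Gins2, Gins4, Rfc2, Prim2, Pole and Tipin. An E2F-type sequence (TTTCCCGC, TTTGGCGC, TTTCGCGC or TTTGCCGC, on either strand) was present in 14 of the 34 promoters, or 41.2%, against 3.01% of the 20267 gene promoters searched. The stretches below lie before the RefSeq start in 5 of these genes and are shown because, of the 5 motifs searched, the share of this one differed most from that of all promoters. By the GENCODE vM21 annotation the Cdc6 stretch and the Orc1 capitals lie inside the gene. Capitals mark the E2F-type letters, which in Cdc6, Orc1 and Pola1 lie on the other strand and are printed as their reverse complement. In Mcm5 and Mcm6 a match on the other strand overlaps the capitals, and Mcm6 has a further match closer to its start.
Mcm5 (chr8:75109330-75109389, plus strand): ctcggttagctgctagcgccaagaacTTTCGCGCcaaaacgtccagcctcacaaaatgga
Mcm6 (chr1:128359782-128359841, minus strand): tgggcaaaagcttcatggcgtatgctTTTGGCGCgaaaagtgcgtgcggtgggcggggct
Cdc6 (chr11:98907987-98908046, plus strand): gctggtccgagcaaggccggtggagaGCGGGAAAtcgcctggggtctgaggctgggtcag
Orc1 (chr4:108579401-108579453, plus strand): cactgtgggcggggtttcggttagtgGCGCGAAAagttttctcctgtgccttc
Pola1 (chrX:93632260-93632319, minus strand): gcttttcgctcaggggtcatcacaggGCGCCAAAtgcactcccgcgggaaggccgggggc

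Letters linked to the IFN-γ response were about as frequent as in other promoters. The gamma-activated site (TTCNNNGAA) was found in 3 of the 34 promoters, those of Mcm5, Cdc45 and Lig1, or 8.82% against 9.35% of all. The interferon-stimulated response element (GAAA, any 2 bases, GAAA) was found in 1, that of Pold2, or 2.94% against 3.92% of all. It is printed because Pold2 had the highest ratio of the 43 genes at 24 h, with the matching letters in capitals, in a stretch that overlaps no annotated exon. By GENCODE vM21 this stretch lies inside the Pold2 gene (chr11:5872180-5878292) and not before its start.
Pold2 (chr11:5877815-5877876, minus strand): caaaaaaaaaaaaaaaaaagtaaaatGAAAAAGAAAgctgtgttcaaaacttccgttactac
The CCAAT box (CCAAT) was present in 61.8% of the 34 promoters against 41.7% of all, and the cell cycle homology region (TTTGAA) in 14.7% against 18.6%. A match of letters is a description of the sequence and not a binding site.

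The study's filters left 1058 cells of the untreated library, 917 of the 24 h library and 2934 of the 48 h library, with 49801935, 71077817 and 47243500 UMIs in all. The medians were 33550, 68784 and 10772 UMIs per cell, so that depth and condition cannot be told apart from these totals. Between 1 and 4 cell barcodes were shared by any 2 libraries. The epithelial markers Epcam, Cdh1, Krt8 and Krt18 were found in every library (3354 to 4691 summed CPM, UMIs scaled to the same total in each library), while 6 immune genes summed to at most 0.783 CPM and 6 stromal genes to at most 0.0602 CPM, with Ptprc at 0 in all libraries. Irf1, a direct IFN-γ target, was at 23.4, 331 and 309.8 CPM in the untreated, 24 h and 48 h libraries. Barcodes below 2000 UMIs carried the 43 genes at 2588, 2608 and 2406 CPM. They were taken as background, and whether they were empty droplets or damaged cells was not tested. As far as they hold free RNA, it can add UMIs of these genes to cells that do not express them.

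Over all cells the replication genes stayed near the untreated level while most other genes had lower CPM at 24 h. Summed over the 43 genes, the level was 2614 CPM untreated, 2834 CPM at 24 h and 2519 CPM at 48 h. At 24 h the median log2 ratio of the 43 genes was 0.16 and 32 of them were above 0, whereas the median of the 14210 features with at least 50 UMIs was -0.38. Past a fold of 1.5, 3 of the 43 genes were higher, where 5.74% of all features tested were, and 0 were lower, where 37.2% of all features were. TMM factors, which scale to the bulk of the genes instead of the total, add 0.45 to every log2 ratio at 24 h and 0.19 at 48 h. With them all 43 genes lay above 0 at 24 h and 22 were past 1.5-fold higher, where 7679 of the 14210 features lay above 0 and 19.5% were past the fold, so the sign of the 11 genes below 0 on the CPM scale depends on the scaling, while the distance of the median to that of all features (0.54 at 24 h) does not.

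At 48 h the 43 genes were centred on the untreated level, with a median log2 ratio of 0.03 against -0.14 for the 14178 features tested. 24 of the 43 genes were above 0 and 19 below. None was past 1.5-fold higher (8.19% of all features tested were), and 1, Rpa3, was past 1.5-fold lower (22.7% of all features were). With TMM factors 31 were above 0, as were 7594 of the 14178 features, and 4 of 43 were past 1.5-fold higher, where 13.0% of all features were. From 24 h to 48 h the median was -0.19, against 0.23 for all 13772 features tested, and 3 genes (Rpa3, Gins2 and Orc6) fell by more than 1.5-fold, where 4.62% of all features did, while none rose by that much, where 25.5% of all features did. With TMM factors 12 were past 1.5-fold lower, where 12.8% of all features were. All 3 ratios use the same 3 libraries and are not independent of each other.

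**Figure D1:**
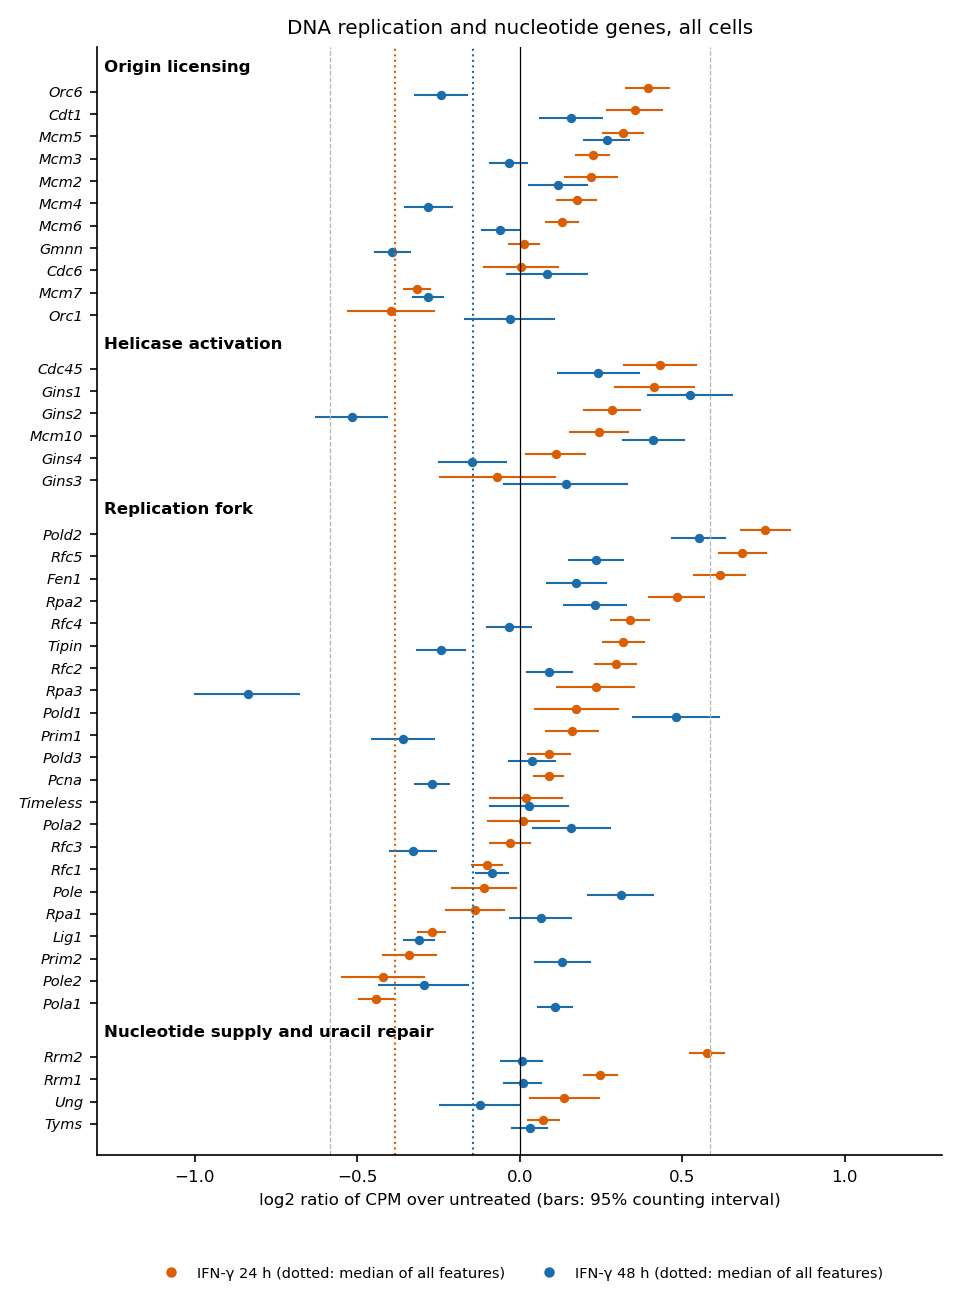
Log2 ratio of CPM over the untreated library for each of the 43 genes at 24 h (orange) and 48 h (blue), by role, with lines for the 95% counting interval, dashed lines at 1.5-fold and dotted lines at the median of all features tested (-0.38 and -0.14). Pold2, Rfc5 and Fen1 lie past the right dashed line at 24 h, and Rpa3 past the left one at 48 h.

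The licensing genes had median log2 ratios of 0.18 after 24 h and -0.03 after 48 h. Orc6, an origin recognition subunit, had the highest ratio at 24 h. Its 2836, 5317 and 2276 UMIs (untreated, 24 h, 48 h) are 56.9 CPM (54.9 to 59.1), 74.8 CPM (72.8 to 76.8) and 48.2 CPM (46.2 to 50.2). The library at 24 h was the highest and that at 48 h the lowest, with log2 ratios of 0.39 and -0.24 over untreated. Orc1, the ATPase subunit of the same complex, had another order. It stood at 18.0 CPM (16.9 to 19.2) untreated, 13.7 CPM (12.9 to 14.6) at 24 h and 17.7 CPM (16.5 to 18.9) at 48 h, from 898, 974 and 834 UMIs. The untreated and 48 h intervals overlapped and the 24 h library lay below both on the CPM scale, while TMM factors put it 0.05 above untreated.

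Of the helicase ring, Mcm5 had the highest ratio at 48 h, with 66.0 CPM (63.8 to 68.3) untreated, 82.2 CPM (80.1 to 84.4) at 24 h and 79.4 CPM (76.9 to 82.02) at 48 h. Mcm7, which is on the same ring, moved the other way, from 178.5 CPM (174.9 to 182.3) to 143 CPM (141 to 146) and 147 CPM (143 to 150.4), from 8892, 10190 and 6938 UMIs. The subunits of 1 complex therefore did not share a direction on the CPM scale, and with TMM factors Mcm7 was 0.13 above untreated at 24 h and 0.10 below at 48 h. Gmnn, the inhibitor of licensing, was level at 24 h and had the lowest ratio of the group at 48 h (-0.39), with 134 CPM (130.3 to 137), 135 CPM (132.1 to 137.5) and 102 CPM (98.8 to 105).

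The helicase activation genes had the highest median ratio of the role groups at both times, 0.26 at 24 h and 0.19 at 48 h. Cdc45, which joins the ring with GINS, had 19.9 CPM (18.7 to 21.2), 26.9 CPM (25.7 to 28.1) and 23.6 CPM (22.2 to 25.01) in the untreated, 24 h and 48 h libraries. Mcm10, which helps to start unwinding, went from 33.4 CPM (31.8 to 35.0) to 39.5 CPM (38.1 to 41.0) and 44.4 CPM (42.5 to 46.3). Both were above untreated at both times, and their intervals did not overlap the untreated one.

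The 4 subunits of GINS did not move together. Gins1 was at 16.9, 22.5 and 24.3 CPM, with log2 ratios of 0.41 (0.29 to 0.54) and 0.52 (0.39 to 0.65) over untreated. Gins2 was at 34.9, 42.4 and 24.4 CPM, with 0.28 (0.20 to 0.37) and -0.52 (-0.63 to -0.41), so at 48 h Gins1 was above and Gins2 below its untreated level, also with TMM factors (0.71 and -0.33). The barcodes below 2000 UMIs gave 17.1, 23.6 and 21.35 CPM for Gins1 and 52.4, 52.3 and 35.6 CPM for Gins2, with the same directions at 48 h. Gins3 had few UMIs (455, 619 and 476) and both of its intervals included 0. Gins4 was at 0.11 and -0.15, below Gins1 and Gins2 at 24 h and between them at 48 h. With TMM factors Gins1 to Gins4 were all above untreated at 24 h (0.86, 0.73, 0.38 and 0.56).

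Among the fork genes, the delta polymerase subunit Pold2, the clamp loader subunit Rfc5 and the flap endonuclease Fen1 rose by more than 1.5-fold at 24 h. Pold2 had 2052, 4947 and 2851 UMIs, or 41.2 CPM (39.4 to 43.03), 69.6 CPM (67.7 to 71.6) and 60.3 CPM (58.15 to 62.6), with log2 ratios of 0.76 (0.68 to 0.83) at 24 h and 0.55 (0.47 to 0.63) at 48 h. Rfc5 was at 43.9, 70.7 and 51.7 CPM, and Fen1 at 37.7, 57.7 and 42.5 CPM, so that for both the 24 h library was highest and the 48 h library lay between. Just inside the fold was Rrm2 (0.58, nucleotide group), followed by Rpa2 (0.48).

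Pola1, the catalytic subunit of the priming polymerase, had the lowest ratio of all 43 genes at 24 h. Its level was 118 CPM (115 to 121), 86.6 CPM (84.5 to 88.8) and 127 CPM (124 to 130.1) from 5862, 6155 and 5994 UMIs, with log2 ratios of -0.44 (-0.49 to -0.39) and 0.11 (0.06 to 0.16). The primase subunit Prim2 (45.2, 35.7 and 49.5 CPM) had the same order of the libraries, with 24 h lowest, whereas the other primase subunit Prim1 had log2 ratios of 0.16 and -0.36. With TMM factors Pola1 and Prim2 were at 0.00 and 0.11 at 24 h, which is at or above untreated.

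The single-strand binding protein has subunits Rpa1, Rpa2 and Rpa3. Rpa3, the smallest, had 927, 1556 and 492 UMIs, or 18.6 CPM (17.4 to 19.9), 21.9 CPM (20.8 to 23.0) and 10.4 CPM (9.51 to 11.4), and fell by 0.84 (log2, interval -0.9985 to -0.68) at 48 h, the lowest ratio of the 43 genes. The barcodes below 2000 UMIs of the same libraries gave 32.8, 38.95 and 18.2 CPM for Rpa3, also lowest at 48 h. Rpa1 and Rpa2 had log2 ratios of 0.06 and 0.23 at 48 h, so that only Rpa3 of the 3 subunits was below its untreated level, and with TMM factors it still was (-0.65). Rpa1 and Pole2 share exon sequence on their own strand with another annotated gene (Gm47300 and Gm49384), so their counts are uncertain.

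Of the fork genes with the most UMIs, Lig1, the ligase that joins Okazaki fragments, had 168 CPM (164.5 to 171.7), 139 CPM (137 to 142) and 136 CPM (132 to 139). Rfc1, the large clamp loader subunit, was at 135 CPM (132 to 139), 126 CPM (124 to 129) and 128 CPM (124 to 131). Both were lower in the treated libraries than in the untreated one on the CPM scale, by 0.27 and 0.31 (log2) for Lig1 and by 0.10 and 0.09 for Rfc1, and with TMM factors both lay above untreated at 24 h. Pcna, the clamp, was at 132, 140.2 and 109 CPM.

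In the nucleotide group the highest ratio at 24 h belonged to Rrm2, the cell-cycle-regulated subunit of ribonucleotide reductase. It had 86.3 CPM (83.7 to 88.9), 129 CPM (126 to 131) and 86.6 CPM (84.0 to 89.3), so that its level at 48 h was back at the untreated one. Its partner Rrm1 followed the same course at a smaller size, with 100.1, 119 and 101 CPM. Tyms was nearly flat at 114, 119 and 116 CPM, and Ung was at 23.7, 26.1 and 21.8 CPM. At 48 h the 4 ratios of the group lay between -0.12 and 0.03.

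The ratio of 48 h over 24 h moved with the length of the gene on the genome. Across the 43 genes, Spearman's rho between annotated span (GENCODE vM21) and this log2 ratio was 0.67, and 0.70 between the ratio and how far a gene was enriched in cells over the barcodes below 2000 UMIs. That enrichment was computed from counts of the same cells as the ratio, so part of the second relation can be built in. Pola1 (chrX:93304767-93632155, 327 kb) and Prim2 (chr1:33453810-33669795, 216 kb) had the highest ratios, 0.55 and 0.47, and Rpa3 (chr6:8255936-8259173, 3.24 kb) the lowest, -1.07. Both relations were also present over all 13758 features with a span, at 0.44 and 0.75, so they were not a property of the replication genes. Genes are not replicates and share the same libraries, whose depth per cell was highest at 24 h and lowest at 48 h, and the part of depth and of the share of background RNA in these relations was not tested. At 24 h over untreated rho with span was -0.47 for the 43 genes and -0.28 for 14198 features. With the enrichment in cells over the barcodes below 2000 UMIs it was -0.41 and -0.44.

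**Figure D2:**
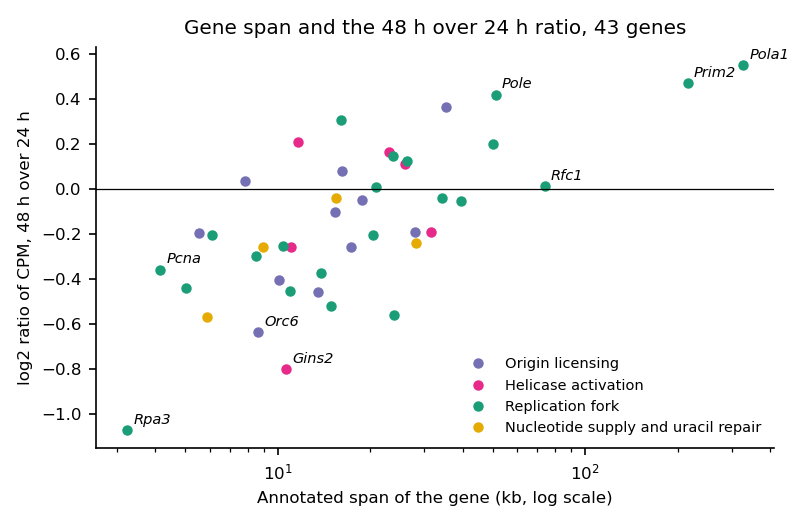
Annotated span of each of the 43 genes (kb, log scale) against its log2 ratio of CPM at 48 h over 24 h, coloured by role. The longest genes, Pola1 and Prim2, lie at the top right, and Rpa3, the shortest gene, at the bottom left.

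Cells were grouped into 9 clusters after integration of the libraries, with the 6 replication genes among the 2000 variable genes left out. By markers that include none of the 43 genes, 5 of the clusters were named, while clusters 0, 5, 6 and 8 were left without a name. In the untreated library the summed level of the 43 genes was 3998 CPM in S-phase-like cells, 3257 in cluster 0 (led by Lrrc4 and Angpt2), 2864 in mitotic-like, 2528 in cluster 5 (led by Ano3, Stox2 and Edn1), 2014 in goblet-like, 1527 in cluster 6 (led by Slc2a13 and Cftr, shallow cells), 906 in enteroendocrine-like and 694 in colonocyte-like cells. Of 13 stem markers 10 were raised in cluster 0, but none was among its 10 leading genes, so it was left without a name. Its medians were 15274, 14892 and 7267 UMIs per cell (untreated, 24 h, 48 h). S-phase-like cells were led by Ung, Ccne2, Hist1h1a, Uhrf1, Mcm4 and Cdc6, and 6 of their 10 leading genes were replication genes, so the high level there is part of what the state is. Only S-phase-like cells, cluster 0 and mitotic-like cells lay above the level of the barcodes under 2000 UMIs (2588 CPM), and goblet-like, colonocyte-like and enteroendocrine-like cells and clusters 5, 6 and 8 lay below it.

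Colonocyte-like and goblet-like cells, whose untreated levels were below those of mitotic-like and S-phase-like cells, had more of these transcripts after IFN-γ on either scaling. S-phase-like and mitotic-like cells had slightly less on the CPM scale when the genes were summed. In colonocyte-like cells the 43 genes rose from 694 CPM (675 to 714) untreated to 1581 CPM (1554 to 1609) at 24 h and 1135.5 CPM (1103 to 1169) at 48 h, which is 1.19 and 0.71 on the log2 scale. In goblet-like cells they were at 2014, 2488 and 2245 CPM (log2 0.30 and 0.16). In S-phase-like cells they were at 3998, 3818 and 3443 CPM (-0.07 and -0.22) and in mitotic-like cells at 2864, 2747 and 2564 CPM (-0.06 and -0.16). Gene by gene, the median log2 ratios at 24 h and 48 h were -0.020 and -0.16 in S-phase-like and 0.006 and -0.017 in mitotic-like cells. Above 0 were 19 and 10 of the 43 genes in S-phase-like cells, and 22 and 21 in mitotic-like cells. With TMM factors the summed ratios for S-phase-like and mitotic-like cells turn to 0.38 and 0.39 at 24 h and to -0.030 and 0.026 at 48 h. Colonocyte-like and goblet-like cells stay above 0 at both times. These factors are those of the whole libraries and were not computed within a state. Over all features tested, the medians at 24 h were -0.17 in S-phase-like and -0.22 in mitotic-like cells, against -0.38 over all cells. The 0.45 that the factors add at 24 h therefore also lifts the bulk of features in these states above 0. The sign of S-phase-like cells at 24 h also changed on the CPM scale, to 0.0098, without the deepest 5% of cells of the state. Enteroendocrine-like cells, too few for a ratio (30, 13 and 18 cells), were at 906, 868 and 1062 CPM.

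**Figure D3:**
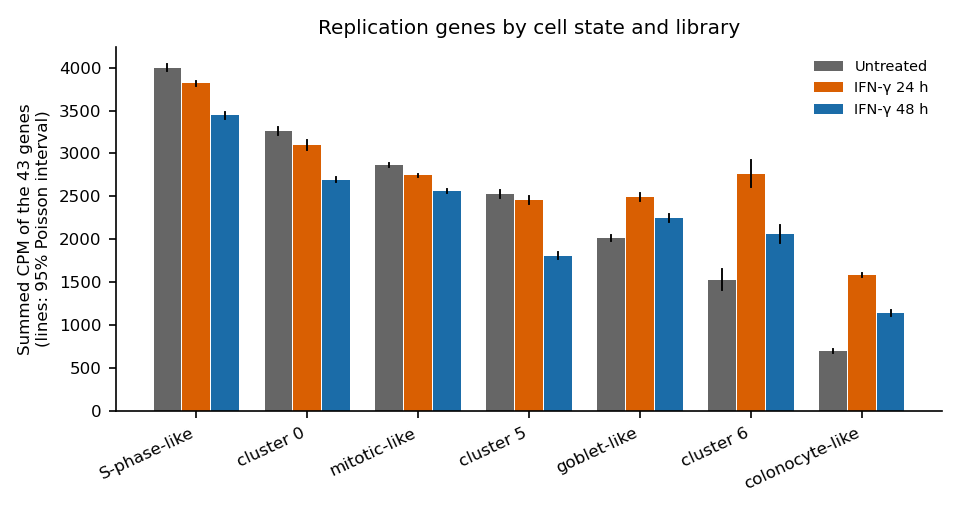
Summed CPM of the 43 genes in each state with at least 20 cells in every library (untreated grey, 24 h orange, 48 h blue), with lines for the 95% Poisson interval. The untreated library is highest in the states at the left, such as S-phase-like cells (3998, 3818 and 3443 CPM), and lowest in colonocyte-like cells at the right (694, 1581 and 1135.5 CPM).

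Gene by gene, colonocyte-like cells at 24 h had a median log2 ratio of 1.32 over the 42 replication genes with at least 50 UMIs. Past 1.5-fold, 36 of the 42 rose, where 16.9% of the 10452 features tested in this state did, and 0 fell, where 32.3% did. By role these were 10 of 11 licensing, 4 of 5 helicase activation, 18 of 22 fork and 4 of 4 nucleotide genes. At 48 h the median was 0.65, and 25 of 41 genes were past 1.5-fold higher (15.9% of all features tested were) and 0 lower (18.2% were). Over all features tested in this state the medians were -0.22 and -0.01.

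The highest ratio in these cells was that of Fen1, with 36, 277 and 79 UMIs or 4.93, 33.8 and 19.8 CPM in the untreated, 24 h and 48 h libraries, and log2 ratios of 2.78 (2.27 to 3.32) and then 2.01 (1.42 to 2.62). Rpa2 was at 4.38, 28.8 and 18.8 CPM, with 2.72 (2.18 to 3.30) and 2.10 (1.49 to 2.75). Rrm2 was at 14.8, 77.4 and 35.1 CPM, with 2.39 (2.09 to 2.696) and 1.25 (0.88 to 1.62). All of these had the untreated library lowest and the 24 h library highest. The helicase factor Cdc45 rested on 14 UMIs in the untreated cells and 101 at 24 h (1.92 and 12.3 CPM).

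The exceptions among the replication genes in colonocyte-like cells were Orc1, at 7.39, 6.34 and 7.03 CPM, and Pole2, at 6.43, 6.83 and 5.27 CPM, for which every interval included 0. The counts of Pole2 are uncertain because of its shared exon sequence. Rfc1 (0.25), Rpa1 (0.46), Pold3 (0.52) and Gins4 (0.57) lay above 0 but inside the fold at 24 h. Gmnn, at 50.1, 89.6 and 46.4 CPM, and Rpa3, at 10.7, 16.2 and 9.29 CPM, were past the fold at 24 h and had intervals that included 0 at 48 h. Pcna was at 42.7, 79.7 and 59.5 CPM and Mcm7 at 36.3, 79.2 and 56.0 CPM. Mcm7 was therefore higher with IFN-γ in colonocyte-like cells and lower in S-phase-like cells, where it was at 281, 194 and 218 CPM.

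Other markers moved with this rise. Within colonocyte-like cells the 13 colonocyte markers, none at 0, summed to 12416, 3418 and 4452 CPM in the untreated, 24 h and 48 h libraries, the 16 mitotic markers to 296, 1727 and 583 CPM, the 20 S-phase markers to 380, 984 and 642 CPM and the 11 goblet markers to 531, 741 and 368 CPM. Cells with under 3000 CPM of colonocyte markers made up 27.1% of the colonocyte-like cells when untreated, 73.5% after 24 h and 57.4% after 48 h. Fewer mature colonocytes and less marker RNA per cell cannot be told apart, and the part of either in the rise was not tested.

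Read at like levels of colonocyte markers, the difference between 24 h and untreated was smaller than over the whole state, and that between 48 h and untreated was smaller in the lower bands and of nearly the same size in the top band. In cells with at least 10000 CPM of the markers they summed to 349 CPM (328 to 372, 59 cells) untreated, 304 CPM (257 to 357, 9 cells) at 24 h and 563 CPM (489 to 644, 25 cells) at 48 h. The rise of the whole state at 24 h was thus not seen in this band, where the untreated and 24 h intervals overlapped. The 24 h value there rests on 148 UMIs. In cells between 3000 and 10000 CPM the 43 genes were at 641, 898 and 786 CPM, and in cells under 3000 CPM at 1224, 1768 and 1395 CPM. The bands did not match the cells on mitotic markers. These summed to 539, 1900 and 716 CPM under 3000 CPM, 277, 1276 and 386 CPM in the middle band, and 133, 197 and 345 CPM in the top band. Their part in the result was not tested. Over all cells with at least 3000 CPM the log2 ratios were 0.53 at 24 h and 0.60 at 48 h. With broader clusters (a resolution of 0.3) those of the whole state were 0.63 and 0.23.

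In goblet-like cells fewer genes moved past the fold. At 24 h 12 of the 43 genes were past 1.5-fold higher (8.68% of all features tested in this state were) and 0 lower (33.4% were). At 48 h 5 were higher (10.7% were) and 0 lower (17.4% were), so the higher count at 48 h was near the share over all features. The 11 goblet markers in these cells summed to 20799, 11141 and 5937 CPM, the mitotic markers to 2353, 2758 and 2617 CPM and the S-phase markers to 2164.5, 2628 and 1816 CPM. In goblet-like cells with at least 10000 CPM of these markers the replication genes were at 1783, 2308 and 1638 CPM from 77, 30 and 31 cells, so the higher level was present there at 24 h and not at 48 h. Between 3000 and 10000 CPM they were at 2832, 2747 and 2146 CPM, lower in both treated libraries, and under 3000 CPM at 1762, 2484 and 2676 CPM. Their part in the result was not tested.

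**Figure D4:**
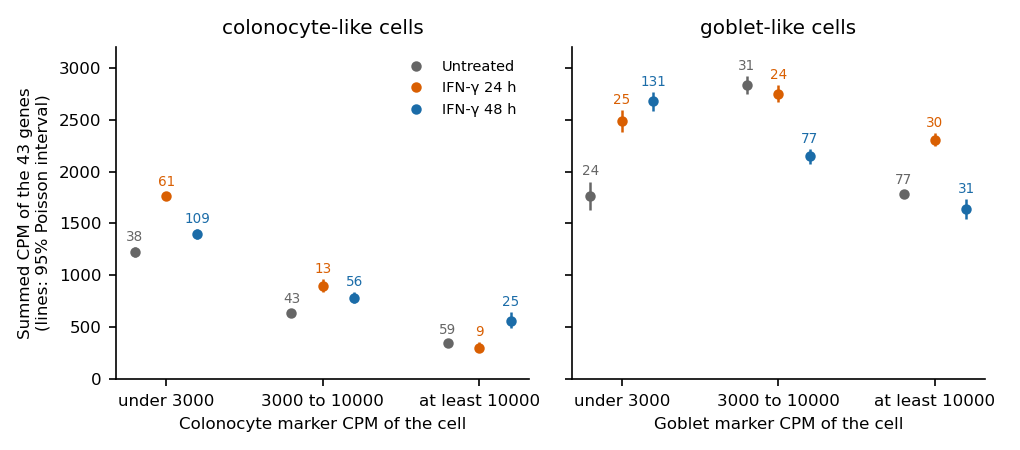
Summed CPM of the 43 genes in colonocyte-like (left) and goblet-like cells (right), split by each cell's summed CPM of the markers of that state, for the untreated (grey), 24 h (orange) and 48 h libraries (blue), with lines for the 95% Poisson interval and the number of cells at each point. In colonocyte-like cells the level falls from left to right in every library, from 1224, 1768 and 1395 CPM to 349, 304 and 563 CPM.

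In S-phase-like cells, a name that rests on transcripts and not on a measure of DNA synthesis, few of the genes moved past the fold. At 24 h 0 of 43 were higher (4.98% of all features tested in this state were) and 1 lower (17.9% were), and at 48 h 0 were higher (8.31% were) and 5 lower (14.5% were). As shares of the 43 genes these counts are below those over all features, but the 5 lower genes at 48 h are near the 14.5%. The shares over all features include features with few UMIs, which pass the fold more easily by counting error. They were not matched to the 43 genes on UMIs. The gene lower at both times was Pole2, a subunit of the leading-strand polymerase, at 31.7, 19.2 and 18.8 CPM from 286, 327 and 149 UMIs, with log2 ratios of -0.72 (-0.96 to -0.49) and -0.75 (-1.05 to -0.46). Its counts are uncertain because of the exon sequence it shares with Gm49384. The others at 48 h were Rpa3 (22.6, 22.7 and 13.3 CPM), Gins2 (54.2, 52.2 and 32.7 CPM), Prim1 (65.5, 61.6 and 39.9 CPM) and Tipin (111, 112 and 70.1 CPM), a fork protection factor. For these 4 the interval of the 24 h ratio included 0 and the 48 h library was lowest. In the barcodes below 2000 UMIs these 4 genes were also lowest at 48 h, as with Prim1 (49.9, 49.5 and 35.5 CPM) and Tipin (81.9, 90.6 and 60.6 CPM). Pold2 stayed above untreated here too, at 57.0, 83.2 and 78.45 CPM. The 20 S-phase markers in these cells summed to 4009, 4308 and 2821 CPM, also lowest at 48 h, and their part in the result was not tested.

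Mitotic-like cells had 0 of 43 genes past the fold in either direction at 24 h (5.21% of all features tested were higher and 21.8% lower) and 2 at 48 h, both lower (17.6% were lower and 8.33% higher). These were again Rpa3, at 25.3, 22.4 and 11.1 CPM, and Gins2, at 43.5, 44.1 and 25.9 CPM. In these cells the mitotic markers summed to 5101, 4280 and 3959 CPM and the S-phase markers to 3897, 3316 and 2187.5 CPM. Their part in the result was not tested.

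The clusters without a name differed among themselves. Cluster 0 had 2 of 43 genes past the fold higher (8.28% of all features tested were) and 1 lower (20.1% were) at 24 h, and 1 higher (8.89% were) and 4 lower (27.3% were) at 48 h, with sums of 3257, 3098.5 and 2696 CPM. Cluster 5 had 2 higher (5.74% were) and 2 lower (27.7% were) at 24 h, and 0 higher (8.21% were) and 15 lower (16.5% were) at 48 h. Its sum went from 2528 to 2459 and 1804 CPM, which at 48 h is -0.49 (-0.53 to -0.45) on the log2 scale and -0.30 with TMM factors. In cluster 6, of 38, 26 and 78 shallow cells, 14 and 13 of the genes had enough UMIs. Of these 12 were higher (16.6% were) and 0 lower (17.0% were) at 24 h, and 5 higher (17.3% were) and 0 lower (21.9% were) at 48 h. The filter takes the UMIs of both compared libraries together, so a gene with few untreated UMIs passed only where the treated library had enough. These counts therefore do not stand for all 43 genes. The sums over all 43 genes do not rest on the filter and were 1527, 2763 and 2059 CPM. In these cells the colonocyte markers summed to 3202, 1092 and 993 CPM, the mitotic markers to 722, 1609 and 1282 CPM and the S-phase markers to 1114, 1756.5 and 1560 CPM, and their part in the result was not tested.

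The shares of the mitotic-like and S-phase-like clusters, which do not measure division, were highest in the 24 h library. Mitotic-like cells were 15.4% of the cells when untreated, 30.9% after 24 h and 17.7% after 48 h, and S-phase-like cells 12.9%, 19.4% and 11.6%. With the share of UMIs of each state held at its untreated value, the summed ratio over all cells was 0.06 at 24 h and -0.13 at 48 h, against 0.12 (0.11 to 0.13) and -0.05 (-0.06 to -0.04) as measured. Of the UMIs of the 43 genes, mitotic-like cells supplied 32.5% when untreated, 42.8% after 24 h and 32.9% after 48 h, and S-phase-like cells 27.7%, 32.3% and 22.9%. Cluster 0, of shallow cells, supplied 14.8%, 5.53% and 26.2%. It made up 30.8%, 19.3% and 45.8% of the cells, and the shares of states within a library depend on each other.

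Cell by cell, the IFN-γ libraries held smaller shares of cells at either end of the range. To set the libraries at 1 depth, each cell was thinned at random to 5000 UMIs, and the UMIs of the 43 genes were counted. The median was 12 untreated, 14 at 24 h and 12 at 48 h, and the lower and upper quartiles were 5 and 19, 9 and 19, and 8 and 16. Cells with at least 20 of these UMIs made up 24.7% (22.1 to 27.4), 20.3% (17.7 to 23.0) and 13.1% (11.9 to 14.4), and cells with at least 30 made up 3.88%, 1.53% and 0.477%. At the minimum of 20 the 24 h interval overlapped the untreated one. Cells with under 5 made up 21.8% (19.4 to 24.45), 9.60% (7.77 to 11.7) and 8.76% (7.76 to 9.84). Without thinning the share with at least 20 was 77.9%, 88.9% and 62.2%, in the order of the depths. Thinning does not remove background RNA, and the barcodes below 2000 UMIs carried these genes at 2588, 2608 and 2406 CPM. Thinning also leaves differences in state shares, such as 13.2%, 9.05% and 6.48% of colonocyte-like cells. The part of either in these values was not tested.

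The highest share at the low end among the states with at least 20 cells was in untreated colonocyte-like cells, of which 77.9% (70.1 to 84.4) had under 5 UMIs when untreated, 41.0% (30.3 to 52.3) after 24 h and 53.2% (45.8 to 60.4) after 48 h. In enteroendocrine-like cells these shares were 56.7%, 76.9% and 44.4%, from 30, 13 and 18 cells. Mitotic markers in these few cells summed to 2023, 1164 and 695 CPM and S-phase markers to 563, 1155 and 810 CPM. Of the S-phase-like cells 52.2% (43.5 to 60.8), 51.7% (44.1 to 59.2) and 30.6% (25.7 to 35.8) had at least 20, and 8.09%, 3.37% and 1.76% at least 30. Of the colonocyte-like cells 0 of 140 had at least 20 when untreated (upper bound 2.60%), 1 of 83 after 24 h and 5 of 190 after 48 h.

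**Figure D5:**
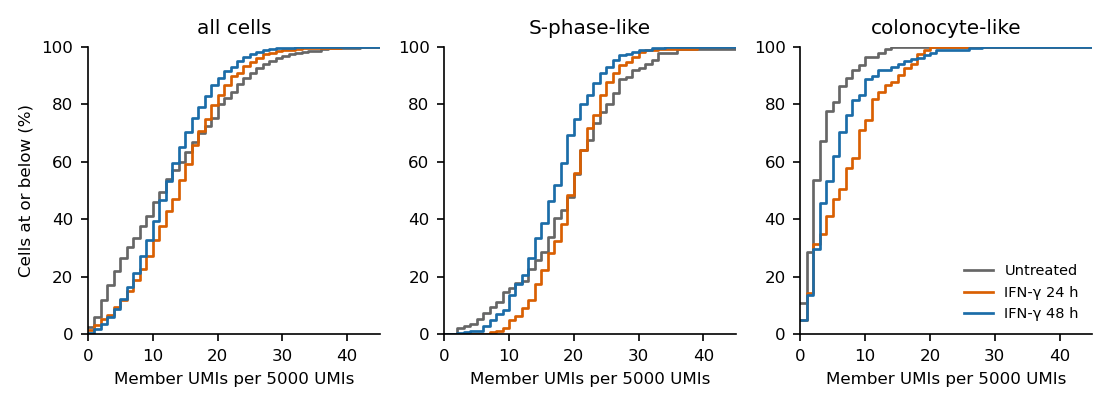
Cumulative share of cells (%) by the number of UMIs of the 43 genes after each cell was thinned to 5000 UMIs, in all cells, S-phase-like and colonocyte-like cells, for the untreated (grey), 24 h (orange) and 48 h libraries (blue). In all cells the untreated curve starts above the others, with 21.8% of cells under 5, and ends below them, with 24.7% at 20 or more.

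Other genes of the pathway were read from lists outside the 43. Of 31 further replication genes, 0 were past 1.5-fold higher at either time (5.74% and 8.19% of all features were), and 2 were lower at 24 h and 3 at 48 h (37.2% and 22.7% were), with medians of 0.01 and 0.01. The lowest at both times was Cdc7, the kinase that fires origins, at 14.8, 9.03 and 9.38 CPM. Mcm9 (26.8, 17.1 and 25.2 CPM) and Wdhd1 (33.4, 23.05 and 32.3 CPM) followed at 24 h, and Chtf8 (-0.60) and Dscc1 (-0.59), both clamp-loading factors, at 48 h. The highest were Rnaseh2c (0.48), Pole3 (0.45) and Donson (0.44) at 24 h and Recql4 (0.47), Chaf1b (0.32) and Rnaseh2a (0.31) at 48 h.

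Of 30 further nucleotide synthesis genes, 2 were higher and 1 lower past 1.5-fold at 24 h, and 2 were higher and 3 lower at 48 h. The higher counts are near the 5.74% and 8.19% of all features, and the lower ones below the 37.2% and 22.7%. The 2 higher ones were the mitochondrial one-carbon enzymes Mthfd2, at 66.5, 149 and 173 CPM (log2 1.16 and 1.38), and Shmt2, at 45.3, 84.4 and 109.8 CPM (0.90 and 1.28). The lowest was the UMP and CMP kinase Cmpk1, at 267, 151 and 77.1 CPM (-0.83 and -1.79), followed by the purine synthesis enzyme Paics, at 121, 84.5 and 64.9 CPM (-0.52 and -0.90). Tk1, the S-phase thymidine kinase, was at 74.0, 69.1 and 47.7 CPM, and fell by 0.63 at 48 h, while Dguok was at -0.39 at 24 h. Prps1 (0.54 at 24 h) and Dhodh (0.45 at 48 h) came next at the upper end.

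The widest ratios belonged to genes that break down or recycle nucleotides, of which 11 of 12 listed were among the features and 4 were past 1.5-fold higher at 24 h and 3 at 48 h (5.74% and 8.19% of all features were). Of the same 11, 2 were lower at 24 h and 1 at 48 h (37.2% and 22.7% were). Upp1, which splits uridine, was at 6.63, 91.2 and 110.2 CPM (log2 3.78 and 4.06). Xdh, which oxidises purines to urate, was at 13.3, 80.5 and 122 CPM (2.60 and 3.20), and Samhd1, which hydrolyses deoxynucleotides and is known as an interferon-induced gene, at 16.2, 99.0 and 104 CPM (2.61 and 2.69). Ada was at 0.59 and 0.56. Cda, cytidine deaminase, fell from 40.0 to 19.5 and 15.3 CPM (-1.04 and -1.39), and Dpyd was at -1.32 at 24 h from 77 untreated UMIs. Hprt and Uck1 were both at -0.50 at 48 h, and Uck1 was at -0.05 at 24 h.

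Split by their promoters, the 14 genes with the E2F-type letters had medians of -0.01 (range -0.44 to 0.35) after 24 h and 0.00 after 48 h on the log2 scale, and the 20 genes with a promoter but without these letters 0.24 (range -0.14 to 0.76) and 0.03, over all cells. In colonocyte-like cells at 24 h the medians were 1.13 over 13 genes and 1.39 over 20. Pold2, Rfc5, Fen1 and Rrm2, the 4 highest at 24 h, were all among those without. These are descriptions of small groups of genes and no test was made.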

How the data were processed

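The authors made 3′ v3 libraries (10x Genomics) of polyA RNA, used Cell Ranger 6.0.1 with mm10 according to the submitters' processing notes, and deposited raw UMI counts for each gene and barcode, background barcodes included. The annotation release is not given in the sources used here. The study's cell filter was applied, a minimum of 5000 UMIs and 400 genes and a maximum of 15% mitochondrial UMIs. Doublets were kept. Counts were summed per library or state, scaled to CPM and compared as log2 ratios with exact conditional binomial intervals for features with at least 50 UMIs over the 2 libraries; sums have exact Poisson and shares Clopper-Pearson intervals. These cover counting error only. The shares of all features past a fold were not matched to the gene lists on UMIs. Libraries were integrated by CCA (Seurat 5.3.0, 30 dimensions, 2000 variable genes less 6 members, 20 components, resolution 0.5). A cluster was named after a marker list with at least 3 genes raised in it, at least 1 among its 10 leading genes, and no other list with more there. TMM factors came from edgeR 4.0.16 (R 4.3.3) on counts summed over all filtered cells of each library, and were used unchanged within states. Tymp was not among the features. Promoters and spans came from RefSeq and GENCODE vM21, both GRCm38. The members, lists and alternatives were chosen with earlier results of these data known. Genes with values per library are, in each role group, those with the highest and lowest ratio at each time and the 2 with the most UMIs; in the other lists, the 3 highest and 3 lowest at each time; others were named after their values were seen. The bands of marker CPM were also chosen after seeing the data.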

Additional observations from a re-analysis of the deposited data

Results flagged for a closer look

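The ratio of the summed replication genes pointed in opposite directions in different cell states on the CPM scale, and these differences were not tested, since each condition has 1 library. Gene by gene, the medians at 24 h were -0.020 in S-phase-like and 0.006 in mitotic-like cells, so the lower sums there were not shared by most genes. At 24 h over untreated, the summed log2 ratio of colonocyte-like cells exceeded that of mitotic-like cells by 1.25 and that of S-phase-like cells by 1.25, and the ratio of goblet-like cells exceeded them by 0.37 and 0.37. At 48 h the differences were 0.87 and 0.93 for colonocyte-like cells and 0.32 and 0.37 for goblet-like cells. With TMM factors all 4 states were above 0 at 24 h (mitotic-like 0.39, S-phase-like 0.38), and S-phase-like cells at 24 h were at 0.0098 on the CPM scale without the deepest 5% of cells of the state. A factor common to a whole library changes the signs and cancels in the differences. Colonocyte markers within colonocyte-like cells were at 12416, 3418 and 4452 CPM in the untreated, 24 h and 48 h libraries, and mitotic markers at 296, 1727 and 583 CPM. Goblet markers within goblet-like cells were at 20799, 11141 and 5937 CPM. In cells with at least 3000 CPM of their state's markers, the ratios at 24 h and 48 h were 0.53 and 0.60 in colonocyte-like cells. In goblet-like cells they were 0.29 and -0.026. The mix of marker levels among these cells differed between the libraries. In colonocyte-like cells between 3000 and 10000 CPM the 43 genes were at 641, 898 and 786 CPM (untreated, 24 h, 48 h). In those with at least 10000 CPM they were at 349, 304 and 563 CPM. The part of these markers in the result was not tested.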

How the results depend on the processing

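No paired analysis was possible because each group has 1 sample, and for the same reason no replicate could be left out. Under TMM factors the median log2 ratio of the 43 genes was 0.61 at 24 h, 0.21 at 48 h and -0.45 for 48 h over 24 h; those of the licensing, helicase activation, fork and nucleotide groups were 0.62, 0.71, 0.54 and 0.64 at 24 h and 0.15, 0.38, 0.24 and 0.19 at 48 h; 22 and 4 genes were past 1.5-fold higher at 24 h and 48 h, and 12 lower for 48 h over 24 h, where 19.5%, 13.0% and 12.8% of all features were. On the CPM scale at a fold of 2, the counts of the 43 genes were 0 higher at 24 h, 0 lower at 48 h and 1 lower for 48 h over 24 h. Without the deepest 5% of cells the licensing median at 24 h was 0.26, and with every cell weighted equally the fork median at 48 h was -0.082.

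By state, in the order 24 h and 48 h, TMM factors gave 0.39 and 0.026 in mitotic-like, 0.38 and -0.030 in S-phase-like, 0.75 and 0.34 in goblet-like and 1.63 and 0.90 in colonocyte-like cells. Equal weights for cells gave -0.078 in mitotic-like, -0.026 in S-phase-like and 0.98 in colonocyte-like cells at 24 h, and 0.52 and 0.33 in goblet-like cells. Without the deepest 5% of cells of each state, an alternative added after seeing the data, the values were 0.0098 and -0.18 in S-phase-like cells, 0.41 and 0.20 in goblet-like cells and 1.10 at 24 h in colonocyte-like cells. A resolution of 1 gave -0.094 and -0.20 in mitotic-like cells, and a resolution of 0.3 gave 0.63 and 0.23 in colonocyte-like cells. Cells with at least 3000 CPM of the state's markers, also added, gave 0.53 and 0.60 in colonocyte-like and -0.026 at 48 h in goblet-like cells. The mix of marker levels among these cells differed between the libraries. The share of cells with many member UMIs was 77.9%, 88.9% and 62.2% (untreated, 24 h, 48 h) without thinning, 58.7%, 72.6% and 67.1% at a minimum of 10, and 3.88%, 1.53% and 0.477% at a minimum of 30. At fixed state shares, a resolution of 0.3 gave -0.12 at 48 h. Apart from what their construction shows, the cause of these moves was not tested. Minimums of 10000 and of 2000 UMIs per cell and a maximum of 10% mitochondrial UMIs were run on the medians over all cells and kept each within the median counting interval of its genes, though at 48 h the fork median turned from 0.051 to -0.0026 at the first, and the nucleotide median from 0.0071 to -0.0042 and -0.0023 at the other two. Clustering with the 43 genes kept left the ratios of goblet-like and colonocyte-like cells within their intervals, and gave no value for mitotic-like cells. The cluster then named S-phase-like held 282, 420 and 806 cells, against 136, 178 and 340 in the main clustering. It was a larger group of cells, so its ratios of -0.081 and -0.22 are no check on the S-phase-like state. All 43 genes passed the filter on low counts, so leaving it out could not change their counts. Depth limits single genes within a state, such as Cdc45 with 14 untreated UMIs in colonocyte-like cells.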
